A study of Mus musculus with 50 samples.

Results

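The 10 germline genes described here are Dppa3, Tfap2c, Nanos3, Ddx4, Dazl, Piwil2, Fkbp6, Rhox5, Rhox9 and Tuba3a. They were chosen because their RNA was higher in Triple_KO than in WT mouse embryonic stem cells at 0 h, so the levels of those groups at 0 h, and each contrast that uses one of them, are given as a description with no test. They are 10 of the 19204 genes in the table, and each had reads. RNA was read at its poly(A) 3′ end in KH2 cells, a line of C57BL/6 x 129/Sv background.

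The genotypes were Triple_KO, which lacks all 3 YTHDF readers (Ythdf1-/-Ythdf2-/-Ythdf3-/-), the single knockouts Ythdf1_KO, Ythdf2_KO and Ythdf3_KO (Ythdf1-/-, Ythdf2-/- and Ythdf3-/-), and WT. All were grown in serum with LIF, plated on gelatin for 48 h and then given 5 µM actinomycin D, which blocks transcription. Cells were collected after 0, 4 and 8 h in replicates A and B, with each replicate sequenced in duplicate at 0 and 8 h and once at 4 h, 50 libraries in all. Whether A and B came from separate cultures or clones is not given in the sources used here, so the p-values measure a spread that may be technical. In these bulk samples, fewer cells that make an RNA and less of that RNA in each cell cannot be told apart.

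Germline genes are used in primordial germ cells, the precursors of eggs and sperm, or later in the ovary and testis. In embryonic stem cells many of them are held low by DNA methylation of CpG-rich promoters and by PRC1.6, a Polycomb complex that holds E2F6 and the E-box-binding pair MGA and MAX. YTHDF proteins bind N6-methyladenosine (m6A) in messenger RNA, and YTHDF2 is best known for speeding the decay of RNA that carries it.

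Promoters are shown first, because the motifs of PRC1.6 can be read in them. RefSeq windows on GRCm38.p6, reaching from 250 bases before to 50 bases after the start, were matched for 6 of the 10 genes (Ddx4, Fkbp6, Rhox5, Tuba3a, Nanos3 and Dazl), and Dppa3, Tfap2c, Rhox9 and Piwil2 are named only. The E-box CACGTG, which reads the same on both strands, was found in windows of 2 of these 6 genes and of 10.3% of the 14700 listed genes with a window. The E2F core TCCCGC, searched on both strands and so also as GCGGGA, was found in 2 of the 6 genes and 33.1% of all. Ddx4 held both motifs, as did 4.27% of all genes. The stretches below run 5′ to 3′ on the gene's strand, which is the minus strand for each, with the motif in capitals.
Fkbp6 E-box (chr5:135350128-135350157, motif 101 bases before the start): tgcgcctgccatCACGTGtgcagcgcgtgc
Fkbp6 E-box nearer the start (chr5:135350064-135350093, motif 37 bases before the start): gcgtctatcgatCACGTGccgtttctctcg
Ddx4 E-box (chr13:112652322-112652351, motif 29 bases before the start): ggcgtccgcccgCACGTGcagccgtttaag
Ddx4 E2F core (chr13:112652429-112652458, motif 136 bases before the start): tccgtccatgggGCGGGAagtcgcgcgccg
Tuba3a E2F core (chr6:125286183-125286212, motif 119 bases before the start): actccagagcctTCCCGCcaaagccacatc
Both Fkbp6 motifs are counted from the same start, and the window of its other start holds the same pair. A match is a run of letters and was not tested as a binding site. The windows differed widely in CpG content, from 38 CpG in Ddx4 and 28 in Dazl to 5 in Rhox5 and 3 in Nanos3, against a median of 17 over all genes. The ratio of observed to expected CpG was 0.978 in Ddx4, 0.795 in Dazl, 0.363 in Rhox5 and 0.131 in Nanos3.

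The values are FPM, reads scaled to each library's total, in which 1 read was worth 0.427 to 1.25 FPM according to the library, so levels below about 2 FPM rest on a few reads. Library totals ran from 796921 to 2341410 reads. Naive pluripotency markers summed to 1938 to 2005 FPM in Triple_KO and 2038 to 2191 FPM in WT libraries at 0 h, with 0 of the 12 markers at 0 in every library of either group. The knocked-out genes still gave 3′ reads: Ythdf1, Ythdf2 and Ythdf3 averaged 42.5, 86.2 and 21.5 FPM in Triple_KO at 0 h, and 57.2, 51.5 and 23.2 FPM in WT. Counts of 3′ reads outside a deleted stretch do not check a knockout. The 10 germline genes together summed to 180 ± 4.99 FPM in Triple_KO at 0 h, 73.9 FPM in Ythdf2_KO, 67.2 FPM in Ythdf1_KO, 49.8 FPM in Ythdf3_KO and 41.6 ± 10.6 FPM in WT (SD, n = 4 libraries each). Most of the Triple_KO sum came from Rhox5, Tfap2c and Dppa3. The 7 genes without these summed to 56.2 FPM in Triple_KO at 0 h, 31.6 FPM in Ythdf1_KO, 23.5 FPM in Ythdf2_KO, 20.1 FPM in Ythdf3_KO and 20.3 FPM in WT. Of the 10 genes, 8 had every Triple_KO library above every WT library at 0 h, the contrast they were chosen on. Over all genes 7.19% did so, and in limma 14.4% were called higher. Against Ythdf1_KO, Ythdf2_KO and Ythdf3_KO at 0 h, 5, 6 and 6 of the 10 genes lay wholly above in Triple_KO, as did 5.64%, 7.58% and 7.91% of all genes. Wholly above WT at 0 h were 0 of the 10 in Ythdf1_KO (2.05% of all genes), 1 in Ythdf2_KO (2.65%), which was Dppa3, and 0 in Ythdf3_KO (2.18%).

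**Figure D1:**
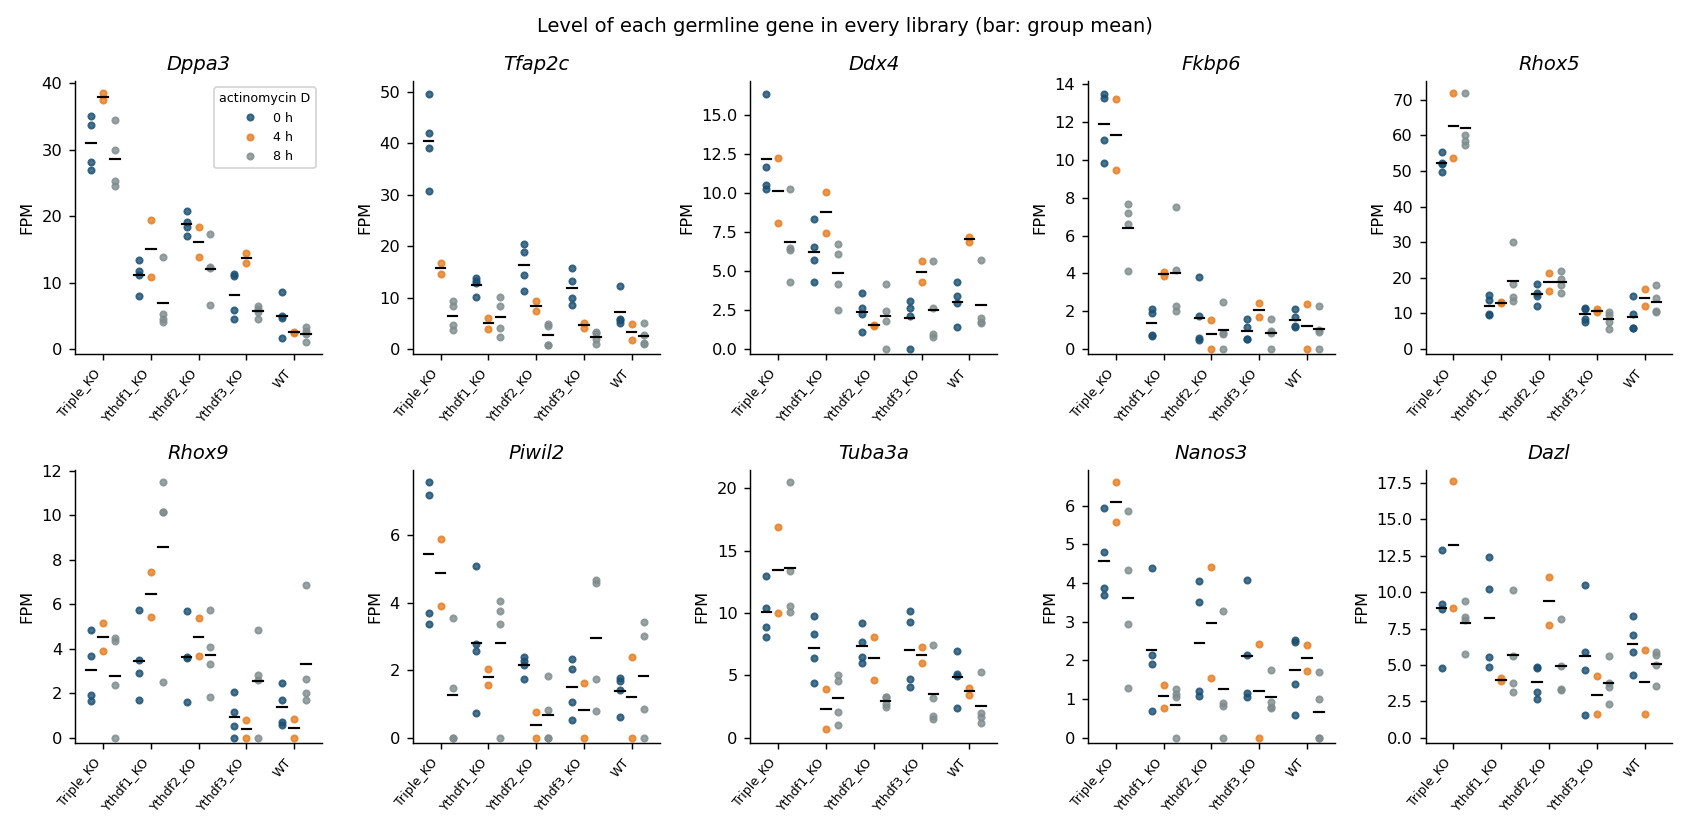
FPM of each of the 10 genes in every library of Triple_KO, Ythdf1_KO, Ythdf2_KO, Ythdf3_KO and WT cells, 1 panel a gene, with points for libraries and lines for group means. Rhox5 in Triple_KO stands apart from every other genotype at all 3 times, and Dazl overlaps between genotypes at 0 h.

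The first group acts in germ cell specification. Dppa3 (Stella, chr6:122626424-122630271) encodes a maternal factor that protects the early embryo's genome from loss of DNA methylation and marks primordial germ cells. At 0 h its libraries, given here and below as the duplicates of replicate A and then those of B, read 28.2, 33.8, 35.1 and 27.0 FPM in Triple_KO and 8.63, 1.69, 4.71 and 4.89 FPM in WT. The Ythdf2_KO libraries read 20.8, 19.16, 17.1 and 18.4 FPM, below every Triple_KO library and above every WT one. At 8 h the libraries read 34.4, 24.5, 29.97 and 25.3 FPM in Triple_KO, against 2.28, 1.00, 3.38 and 2.64 FPM in WT. The 8 h groups did not overlap. The difference was 3.20 ± 0.37 on the log2(FPM + 1) scale (± SE, limma, adjusted p = 6.89e-11), and it was 2.72 when libraries were scaled to the median gene.

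Tfap2c (chr2:172545678-172558622) encodes the AP-2γ transcription factor, which is needed for primordial germ cells and is also active in trophoblast. At 0 h it had 49.7, 42.1, 30.8 and 39.0 FPM in Triple_KO libraries and 12.3, 5.07, 5.89 and 5.59 FPM in WT. At 8 h it had 3.66, 9.38, 8.29 and 4.71 FPM in Triple_KO, against 1.14, 1.00, 5.06 and 2.64 FPM in WT. The groups stood apart at 0 h and overlapped at 8 h, where the difference of 1.19 ± 0.52 did not pass (limma, adjusted p = 0.0653). At 4 h the 14.7 and 16.7 FPM of Triple_KO lay above the 1.72 and 4.79 FPM of WT, and the difference of 2.07 ± 0.51 passed (limma, adjusted p = 0.00150). Of the 10 genes it had the most negative log2 difference of 8 h against 0 h of actinomycin D in Triple_KO, −2.52, in a contrast that is not tested here because the choice of genes used its 0 h values.

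Nanos3 (chr8:84173733-84176552) encodes an RNA-binding protein that keeps migrating germ cells alive. It was near the limit of detection, with 3.68, 3.88, 5.94 and 4.82 FPM in Triple_KO libraries and 2.47, 2.54, 0.589 and 1.40 FPM in WT at 0 h. At 8 h it had 5.86, 4.33, 1.28 and 2.94 FPM in Triple_KO, against 0, 1.00, 1.69 and 0 FPM in WT. It did not reach the minimum level for testing at 0 or 8 h (5 FPM in at least 2 replicate means). At 4 h its difference of 1.22 did not pass (limma, adjusted p = 0.266).

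The second group encodes RNA-binding proteins of established germ cells. Ddx4 (Vasa, chr13:112598333-112652633) is a DEAD-box helicase of germ granules. It had 11.7, 10.5, 10.3 and 16.4 FPM in Triple_KO libraries at 0 h, against 4.32, 3.38, 2.94 and 1.40 FPM in WT. At 8 h it had 10.3, 4.33, 6.38 and 6.48 FPM in Triple_KO and 5.71, 2.01, 1.69 and 1.76 FPM in WT, and the groups overlapped. The 8 h difference of 1.12 ± 0.51 did not pass (limma, adjusted p = 0.0762), nor did that at 4 h, 0.45 (limma, adjusted p = 0.600).

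Dazl (chr17:50279393-50293620) binds the 3′ ends of messenger RNAs and licenses germ cells for meiosis. Its 12.9, 8.86, 9.18 and 4.82 FPM in Triple_KO at 0 h overlapped with the 4.32, 5.92, 7.06 and 8.39 FPM of WT. The overlap remained at 8 h, with 8.06, 5.77, 8.29 and 9.42 FPM in Triple_KO and 5.71, 5.02, 5.91 and 3.52 FPM in WT, and the difference of 0.56 ± 0.43 did not pass (limma, adjusted p = 0.322). At 4 h it had 17.6 and 8.92 FPM in Triple_KO, against 6.02 and 1.595 FPM in WT, and the difference of 1.67 ± 0.55 passed (limma, adjusted p = 0.0227). With median scaling the 4 h difference was 1.34 and did not pass (limma, adjusted p = 0.0850).

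The next group belongs to the piRNA pathway, which silences transposons in germ cells. Fkbp6 (chr5:135291704-135351809) encodes a co-chaperone that helps to load piRNAs onto PIWI proteins. Its 9.81, 13.3, 13.5 and 11.1 FPM in Triple_KO at 0 h stood far above the 1.23, 1.69, 1.18 and 2.10 FPM of WT. At 8 h it had 6.59, 7.22, 7.65 and 4.12 FPM in Triple_KO, against 2.28, 1.00, 0 and 0.880 FPM in WT, with no overlap. The 8 h difference was 1.95 ± 0.57 (limma, adjusted p = 0.00499). Fkbp6 entered that test through its Triple_KO libraries, with 1 replicate mean of another genotype at 5 FPM or more at 8 h and 0 at 4 h. Its call at 8 h was lost in DESeq2 on the recovered reads (adjusted p = 0.164) and, in limma, without Triple_KO replicate A (adjusted p = 0.102), Triple_KO replicate B (adjusted p = 0.0563) or WT replicate B (adjusted p = 0.0880). Fkbp6 was listed by 3 transcripts, of which 2 had identical values and were counted once, and the stronger of the 2 distinct entries alone did not reach the minimum level at 8 h.

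Piwil2 (chr14:70372477-70436898) encodes a PIWI protein that binds piRNAs. It had 3.68, 7.20, 7.56 and 3.37 FPM in Triple_KO libraries at 0 h, all above the 0.617, 1.69, 1.77 and 1.40 FPM of WT. At 8 h this order was gone: Triple_KO libraries had 1.46, 0, 0 and 3.53 FPM, and WT libraries had 3.43, 3.01, 0.844 and 0 FPM. It did not reach the minimum level at 4 or 8 h. The 4 Triple_KO libraries at 8 h held 8 Piwil2 reads in all, against 7 in the 4 WT libraries, so its 8 h levels rest on few reads.

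The fourth group is the pair of X-linked homeobox genes. Rhox5 (Pem, chrX:37754608-37808878) encodes a homeobox protein of Sertoli cells, the placenta and early embryonic cells, and its promoters are silenced by DNA methylation. At 0 h it had 52.1, 52.0, 49.7 and 55.4 FPM in Triple_KO and 14.8, 5.92, 5.89 and 9.79 FPM in WT. At 8 h it had 60.1, 58.5, 57.4 and 71.8 FPM in Triple_KO, against 10.3, 18.1, 14.3 and 10.6 FPM in WT. No library of WT came near those of Triple_KO at either time, and the 8 h difference was 2.17 ± 0.24 (limma, adjusted p = 2.05e-11). At 4 h the difference was 2.05 ± 0.31 (limma, adjusted p = 1.34e-07). Over the tested genes of the X chromosome the median log2 difference at 0 h was 0.13, against 0.07 over all chromosomes. This was the highest among the chromosomes that hold the 10 genes, with 0.12 on chromosome 6. At 8 h the X median was 0.36, against 0.44 over all chromosomes. The part of the chromosome in the Rhox5 level was not tested.

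Rhox9 (chrX:37899097-37901770), a gene of the same cluster active in germ cells, did not share this pattern. It had 3.68, 1.66, 4.86 and 1.93 FPM in Triple_KO at 0 h and 2.47, 1.69, 0.589 and 0.699 FPM in WT. At 8 h Triple_KO libraries had 0, 4.33, 4.46 and 2.35 FPM, against 6.85, 2.01, 1.69 and 2.64 FPM in WT, a difference of −0.31 ± 0.50 that did not pass (limma, adjusted p = 0.662). At 4 h it had 5.14 and 3.90 FPM in Triple_KO, against 0.861 and 0 FPM in WT, a difference of 2.01 ± 0.72 that passed (limma, adjusted p = 0.0384) but not with median scaling (1.74, adjusted p = 0.0902). Its highest levels at 8 h were in Ythdf1_KO, with 11.5, 2.51, 10.1 and 10.1 FPM. The difference of Ythdf1_KO from WT, 1.14 ± 0.50, did not pass after adjustment (limma, unadjusted p = 0.0262, adjusted p = 0.284). Rhox genes are close relatives, and whether reads were shared among them is not known, so their split is uncertain.

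Tuba3a (chr6:125278270-125286081) encodes a testis α-tubulin. Its libraries had 10.4, 8.86, 8.10 and 13.005 FPM in Triple_KO at 0 h and 4.93, 5.07, 2.35 and 6.99 FPM in WT. At 8 h they had 20.5, 10.1, 13.4 and 10.6 FPM in Triple_KO, against 1.14, 2.01, 1.69 and 5.28 FPM in WT. The groups did not overlap at either time, and the 8 h difference of 2.13 ± 0.47 passed (limma, adjusted p = 0.000218). Tuba3a entered that test through its Triple_KO libraries, as only 1 replicate mean of another genotype reached 5 FPM. Tuba3b, a near-identical copy that may share its reads, averaged 5.39 FPM in Triple_KO and 1.29 FPM in WT at 8 h.

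Among the 8 genes tested at 8 h, limma called Dppa3, Rhox5, Tuba3a and Fkbp6 higher in Triple_KO than in WT, and did not call Tfap2c, Ddx4, Dazl and Rhox9. edgeR on the recovered reads called 6, adding Tfap2c (1.30, adjusted p = 0.0446) and Ddx4 (1.35, adjusted p = 0.0344). DESeq2, which scales the libraries by its own factors and not by their totals, called 3, without Fkbp6. Of all 7022 genes tested 33.6% were called higher and 1.69% lower, and the median log2 difference was 0.44, so a call alone does not set a gene apart at 8 h. At 8 h the listed genes held a mean of 41.1% of reads in Triple_KO and 33.2% in WT libraries. At 0 h these shares were 44.3% and 43.3%. Their part in the 8 h median was not tested. Of these 8 genes, 4 (Tuba3a, Fkbp6, Tfap2c and Ddx4) reached the minimum level at 8 h only with the help of Triple_KO, where they are high, so their number is no support. With no minimum level limma still called Tuba3a (adjusted p = 0.00867) and Fkbp6 (adjusted p = 0.0456), and not Tfap2c or Ddx4. The 4 genes were still called higher with the libraries scaled to the median gene, at 2.72 for Dppa3, 1.67 for Rhox5, 1.68 for Tuba3a and 1.55 for Fkbp6 (limma, adjusted p = 0.0448 for Fkbp6). Under that scaling 663 genes were called higher and 955 lower, compared with 2360 and 119 by library totals. At 4 h, 7 of the 9 genes tested were called higher, where 16.5% of 7980 genes were called higher, 2.02% lower, and the median was 0.30. Of these 9 genes, 2 (Fkbp6 and Nanos3) reached the minimum level at 4 h only through Triple_KO, so this number is no support either. The 4 h calls of Dppa3 (3.48 ± 0.37, adjusted p = 6.20e-13), Rhox5, Fkbp6 (2.73 ± 0.72, adjusted p = 0.00310) and Tfap2c held with median scaling in limma, and those of Tuba3a (1.58 ± 0.55, adjusted p = 0.0324), Rhox9 and Dazl did not. edgeR called the same 7 genes, while DESeq2 called Dppa3 and Rhox5 and lost Tfap2c (adjusted p = 0.125) and Fkbp6 (adjusted p = 0.142). In limma Tfap2c (adjusted p = 0.0688) and Fkbp6 (adjusted p = 0.119) were also lost without WT replicate A. Counted by libraries, 4 of the 10 genes had no overlap with WT at 8 h and lay above it, as did 13.8% of all genes, and 10 of 10 at 4 h, as did 26.2%.

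**Figure D2:**
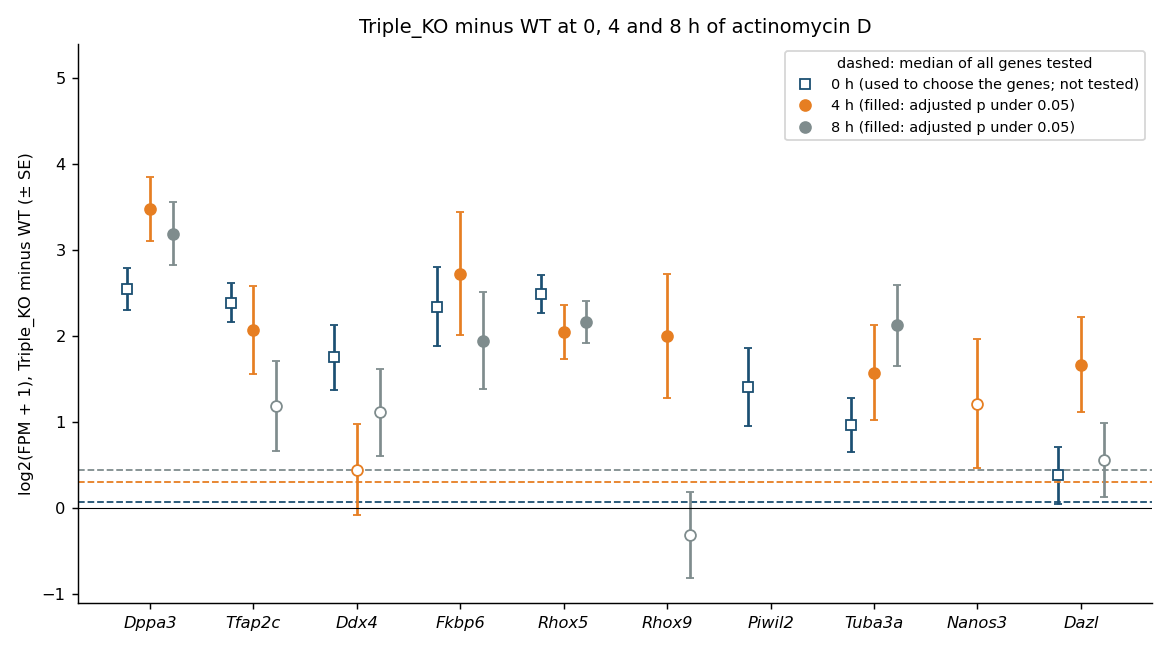
Log2(FPM + 1) difference of Triple_KO minus WT for each gene at 0, 4 and 8 h, with bars for the standard error and a dashed line for the median of all genes tested at that time. Dppa3 and Rhox5 lie above 2 at each time, while Tfap2c lies at 2.39 at 0 h and 1.19 at 8 h.

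The single knockouts were then set against WT at 8 h. Dppa3 in Ythdf2_KO had 12.3, 17.3, 6.62 and 12.2 FPM, above every WT library, with a difference of 1.97 ± 0.37 (limma, adjusted p = 0.000122). This was the largest log2 difference among the 7022 genes in that comparison, where 0.954% were called higher and 5.8% lower. Dppa3 also lay above WT in Ythdf1_KO, at 5.22, 13.8, 4.05 and 4.51 FPM, and in Ythdf3_KO, at 4.58, 6.09, 6.43 and 5.60 FPM. In both cases no library overlapped with WT, which held for 1 of the 10 genes in each single knockout and for 1.87%, 0.797% and 0.755% of all genes in Ythdf1_KO, Ythdf2_KO and Ythdf3_KO. Yet the differences of 1.15 in Ythdf1_KO (limma, adjusted p = 0.0890) and 1.05 in Ythdf3_KO (limma, adjusted p = 0.125) did not pass. The order of the Dppa3 means at 8 h was Triple_KO 28.6 ± 4.58 FPM, Ythdf2_KO 12.1 ± 4.35, Ythdf1_KO 6.90 ± 4.63, Ythdf3_KO 5.68 ± 0.806 and WT 2.33 ± 0.992 (SD, n = 4 libraries each). Ythdf2_KO and Ythdf1_KO overlapped, as did Ythdf1_KO and Ythdf3_KO.

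No other gene of the 10 was called by limma in a single knockout at 8 h. With median scaling the split of all calls into higher and lower changed in each single knockout, to 64 and 140 in Ythdf1_KO (87 and 46 by library totals), 216 and 113 in Ythdf2_KO (67 and 407) and 36 and 51 in Ythdf3_KO (18 and 171). In Ythdf1_KO 0 of 8 genes passed in limma, where 1.24% of all genes were called higher and 0.655% lower, although 4 had an unadjusted p below 0.05 (Dppa3, Tfap2c, Fkbp6 and Rhox9). edgeR and DESeq2 on the recovered reads also called 0. In Ythdf3_KO 0 of 8 passed in limma, where 0.256% were called higher and 2.44% lower, with 2 at an unadjusted p below 0.05 (Dppa3, higher, and Rhox5, at −0.62) and 0 by edgeR or DESeq2. Rhox5 in Ythdf2_KO had 19.7, 21.8, 15.7 and 17.9 FPM, overlapping the WT libraries.

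**Figure D3:**
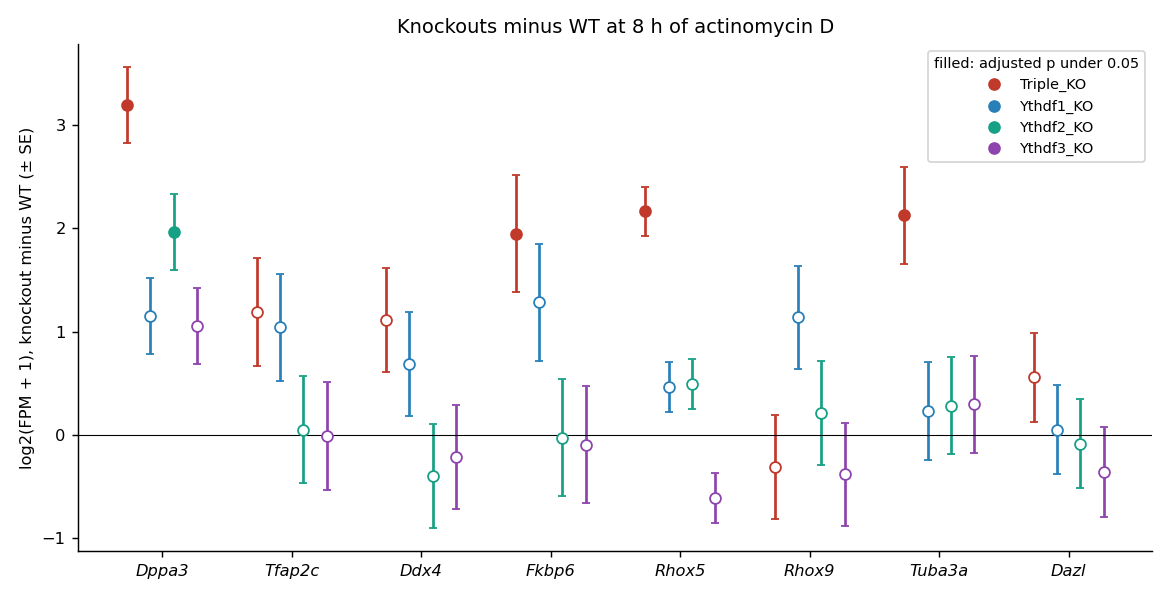
Log2(FPM + 1) difference from WT at 8 h for each gene that reached the minimum level, in Triple_KO, Ythdf1_KO, Ythdf2_KO and Ythdf3_KO, with bars for the standard error. Dppa3 is above 0 in each genotype, from 3.20 in Triple_KO to 1.05 in Ythdf3_KO, and Rhox5, Tuba3a and Fkbp6 are called in Triple_KO and in no single knockout.

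Triple_KO was also set against the mean of the single knockouts at 8 h, a test of the step from losing 1 reader to losing all 3. Rhox5 was higher by 2.05 ± 0.20 (adjusted p = 5.06e-14), Tuba3a by 1.86 ± 0.38 (adjusted p = 5.04e-05) and Dppa3 by 1.804 ± 0.302 (adjusted p = 1.03e-06), all in limma. Fkbp6 (1.56 ± 0.46, adjusted p = 0.00389) and Ddx4 (1.09 ± 0.41, adjusted p = 0.0230) also passed in limma, but not with median scaling, at 1.14 and 0.64, nor in DESeq2 or without either Triple_KO replicate. Both, and Tuba3a as well, had entered the test through Triple_KO, where they are high, so the number of calls is no support. With no minimum level Fkbp6 passed (limma, adjusted p = 0.0344) and Ddx4 did not (limma, adjusted p = 0.104). edgeR called 7 of the 8 genes here, and DESeq2 3. Rhox9 was at −0.63 and did not pass (limma, adjusted p = 0.184). These 5 calls stand in a comparison in which 50.5% of genes were called higher, 1.28% lower, and the median was 0.51. By library totals 3549 genes were called higher and 90 lower, and with median scaling 664 and 1037. By libraries, 4, 5 and 6 of the 10 genes lay wholly above Ythdf1_KO, Ythdf2_KO and Ythdf3_KO at 8 h, as did 11.5%, 18.3% and 16.3% of all genes.

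Between single knockouts at 0 h, Dppa3 was higher in Ythdf2_KO than in Ythdf3_KO, whose libraries had 5.81, 11.2, 11.05 and 4.59 FPM. The difference was 1.19 ± 0.25 (limma, adjusted p = 0.000504), in a comparison with 0.774% of genes called higher and 0.45% lower, and it did not pass without Ythdf2_KO replicate A (limma, adjusted p = 0.0853). Ddx4 was lower in Ythdf3_KO, with 0, 2.14, 2.63 and 3.06 FPM, than in Ythdf1_KO, with 4.27, 8.34, 6.57 and 5.73 FPM. That difference was −1.44 ± 0.38 (limma, adjusted p = 0.0166), with 0.866% of genes called higher and 1.26% lower, and it was lost in DESeq2 and without Ythdf3_KO replicate A or either Ythdf1_KO replicate. Between Ythdf2_KO and Ythdf1_KO at 0 h limma called 0 of 8 genes, 3 had an unadjusted p below 0.05 (Dppa3, Ddx4 and Dazl), edgeR called 1 and DESeq2 0, where 1.22% of genes were called higher and 2.03% lower.

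Levels were next compared between times of actinomycin D within each genotype, and no gene was tested against another. FPM is a share of all reads in a library, also those outside the listed genes, so the differences below are relative. Listed genes held a mean of 43.9%, 43.4% and 43.8% of reads in Ythdf1_KO, Ythdf2_KO and Ythdf3_KO at 0 h. At 8 h they held 33.4%, 30.5% and 30.6%. The median gene tested lost FPM from 0 to 8 h, so each difference is to be read beside the medians below. Tfap2c was lower at 8 h than at 0 h in each single knockout, by −1.07 ± 0.45 in Ythdf1_KO (adjusted p = 0.0379), −2.38 ± 0.45 in Ythdf2_KO (adjusted p = 6.71e-06) and −2.02 ± 0.45 in Ythdf3_KO (adjusted p = 0.000110), all in limma. In Ythdf2_KO its libraries had 4.93, 4.55, 0.828 and 0.812 FPM at 8 h, against 11.3, 20.4, 14.4 and 18.9 FPM at 0 h, with no overlap. Most genes moved the same way: 54.6%, 62.7% and 59.7% were called lower at 8 h in Ythdf1_KO, Ythdf2_KO and Ythdf3_KO, with medians of −0.77, −0.92 and −0.83, while 1.38%, 0.597% and 0.664% were called higher. With median scaling 2118, 2066 and 2100 genes were called higher and 1391, 1592 and 1477 lower in the same knockouts. With median scaling Tfap2c was at −0.23 in Ythdf1_KO and did not pass (limma, adjusted p = 0.740), while −1.51 in Ythdf2_KO and −1.19 in Ythdf3_KO did (limma, adjusted p = 0.00843 and 0.0404).

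By library totals Rhox5 was called in 1 of the 3 single knockouts in this contrast, and the difference between knockouts was not tested. In Ythdf1_KO it was higher at 8 h, with 13.6, 30.1, 18.2 and 14.6 FPM, than at 0 h, with 13.7, 9.73, 9.49 and 15.3 FPM. The groups overlapped, and the difference was 0.59 ± 0.26 (limma, adjusted p = 0.0463) and 1.48 with median scaling. It did not pass by library totals without Ythdf1_KO replicate A at 8 h (limma, adjusted p = 0.244), which holds the 30.1 FPM library, or without replicate A or B at 0 h (limma, adjusted p = 0.149 and 0.108). In Ythdf2_KO Rhox5 was at 0.28 and in Ythdf3_KO at −0.21 by library totals, and neither passed (limma, adjusted p = 0.332 and 0.488). These 2 values are not to be set beside the 1.48. With median scaling the all-gene median moved from −0.92 to 0.04 in Ythdf2_KO and from −0.83 to 0.07 in Ythdf3_KO. Tuba3a was lower at 8 h than at 0 h in Ythdf1_KO (−1.07 ± 0.46, adjusted p = 0.0430) and Ythdf2_KO (−1.07, adjusted p = 0.0374) in limma, and was at −0.31 and −0.17 with median scaling, where neither passed. Leaving out any 1 of the 4 replicates ended the Tuba3a call in both knockouts, and 3 of 4 such fits ended the Tfap2c call in Ythdf1_KO. In Triple_KO, where these changes are described and not tested, Tuba3a was at 0.37, Rhox5 at 0.23 and Dppa3 at −0.12, above the all-gene median of −0.39. Fkbp6 at −0.82, Ddx4 at −0.78, Piwil2 at −1.75 and Tfap2c at −2.52 lay below it, in a contrast with 25.8% of genes called lower. In WT Rhox5 was at 0.56, Dppa3 at −0.76, Tuba3a at −0.79 and Tfap2c at −1.32, around a median of −0.81, with 55.2% called lower.

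**Figure D4:**
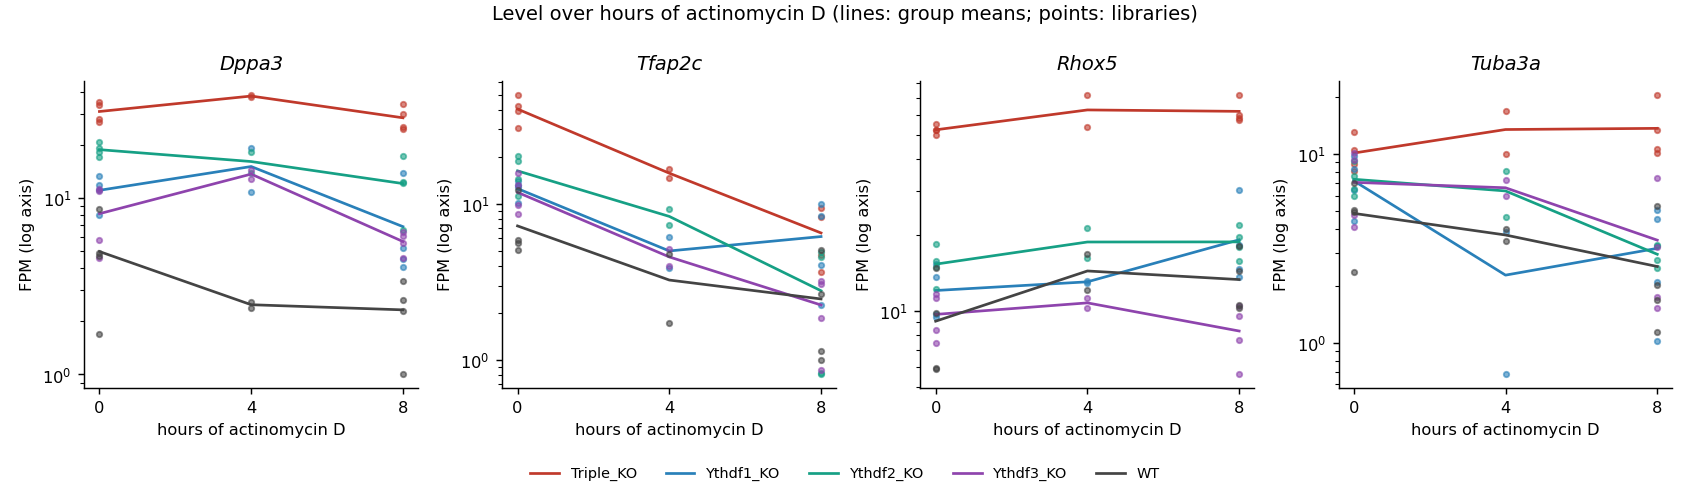
Level (FPM, log axis) of Dppa3, Tfap2c, Rhox5 and Tuba3a at 0, 4 and 8 h of actinomycin D in each genotype. Lines join group means and points are libraries (n = 4 at 0 and 8 h, 2 at 4 h). Tfap2c in Triple_KO has a mean of 6.51 FPM at 8 h and 40.4 FPM at 0 h, while Dppa3 in Triple_KO is at 28.6 FPM at 8 h and 31.0 FPM at 0 h.

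From 4 to 8 h limma called 0 of the 10 genes in Triple_KO, where 0.177% of genes were called higher and 4.76% lower. Tfap2c (−1.23, adjusted p = 0.0926) and Piwil2 (−1.67, adjusted p = 0.0682) had an unadjusted p below 0.05 in limma, edgeR called 1 gene and DESeq2 0. In WT Rhox9 was higher at 8 h than at 4 h (1.51 ± 0.51, limma, adjusted p = 0.0244), where 0.376% were called higher and 23.6% lower, but not by edgeR or DESeq2. For the test of whether the change from 4 to 8 h differed between Triple_KO and WT, 1.02% of genes were called higher and 0.0664% lower. There limma called 0 of the 10, 2 had an unadjusted p below 0.05 (Rhox9, at −2.32 with an adjusted p of 0.0999, and Piwil2), and edgeR and DESeq2 called 0. Piwil2 and Nanos3 entered the fit over all times, used for every comparison of times, only through Triple_KO. For Piwil2 this included the 0 h levels used to choose it (replicate means 5.44 and 5.47 FPM). Outside Triple_KO, Fkbp6 reached 5 FPM only in Ythdf1_KO replicate A at 8 h (5.85 FPM). The values of these genes in that fit are no support.

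Features of the transcripts, which the choice did not use, were not shared. The m6A consensus core GGACT, searched on the transcript strand in GENCODE M21, occurred 0 times in Dppa3, Rhox5 and Rhox9, whose transcripts are short, at 833, 633 and 882 nt. Of all genes 10.3% held no copy, and of the 669 genes with transcripts of 633 to 882 nt 38.7%. It occurred 4 times in Tuba3a (2.65 per kb), 7 times in Piwil2 (1.42 per kb) and 4 times in Ddx4 (1.33 per kb). Nanos3 (2.74 per kb), Fkbp6 (1.38 per kb), Tfap2c (0.70 per kb) and Dazl (0.67 per kb) held it 2 times each. The median over all genes was 1.05 per kb. Only these letters were searched, and other forms of the m6A consensus were not. Whether the count bears on the levels of the genes was not tested. The median of the 10 genes was 1.02 per kb. The letters alone do not show whether a site is methylated. An internal exon of 400 bases or more was found in 3 of the 10 genes (Rhox9, Tfap2c and Tuba3a) and in 17.97% of all genes.

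The genes whose levels tracked each member most closely were found by Pearson's r over the 15 group means of genotype and time, which share libraries and scaling. Rhox5 was most like Fabp3 (r = 0.98), a fatty acid-binding protein gene. Dppa3 was most like Tead2, a Hippo pathway transcription factor gene, and Ldhb, a lactate dehydrogenase gene (both r = 0.93), Tfap2c most like Arhgap29 (0.96), Fkbp6 most like Pdpn (0.96), and Tuba3a most like Acot1 (0.96). Rhox9 was most like its cluster neighbour Rhox6 (0.91). Among the 10 genes themselves r ran from −0.16 for Rhox9 with Tuba3a to 0.85 for Tuba3a with Nanos3, and it was 0.82 for Fkbp6 with Rhox5.

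Other germline genes, taken from lists written with earlier results of these data known, were read at 8 h in Triple_KO against WT. The counts are set beside the 33.6% of all genes called higher there and, because the all-gene median was 0.44, beside the counts with median scaling. Most listed genes were too low to test. In the piRNA list 5 of the 6 tested genes (of 23 in the table) were called higher in limma, with a median log2 difference of 1.02. Of the 6, 3 lay above the all-gene median of 0.44. With median scaling 3 were called higher and 1 lower. Tdrd12, a Tudor protein of the pathway, was at 2.18 ± 0.31 (limma, adjusted p = 2.33e-08), Tex19.1, a germ cell gene held low by promoter methylation, at 1.86 ± 0.22 (limma, adjusted p = 2.41e-10) and Gtsf1l, a relative of the piRNA factor Gtsf1, at 1.64. All 3 stayed above 1 with median scaling, at 1.70, 1.36 and 1.15. The chaperone gene Hsp90aa1, at 0.39 ± 0.05 by library totals (limma, adjusted p = 5.40e-10), turned to −0.12 with median scaling (limma, adjusted p = 0.0453).

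In the list of testis and methylation-silenced genes 3 of 6 tested (of 30) were called higher, with a median of 0.62, and 2 with median scaling. Mageb16, a melanoma antigen family gene, was at 1.76 ± 0.49 (limma, adjusted p = 0.00350) and the testis ribosomal protein gene Rpl10l at 1.62 ± 0.27 (limma, adjusted p = 1.09e-06), and both passed with median scaling, at 1.32 and 1.13. The glucose transporter gene Slc2a3 was at 0.51 ± 0.07 (limma, adjusted p = 9.74e-09) and at 0.00 with median scaling.

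Meiosis genes had 2 of 9 tested (of 30) called higher, with a median of 0.74. Syce2, of the synaptonemal complex, was at 0.63 ± 0.17 (limma, adjusted p = 0.00255) and Psmc3ip, a recombination cofactor, at 0.90 ± 0.29 (limma, adjusted p = 0.0107). With median scaling neither passed, at 0.13 and 0.41. Primordial germ cell genes, of which 14 were tested, had 2 called higher and 2 lower, with a median of 0.17, and 0 higher and 5 lower with median scaling. Sohlh2, an oocyte and spermatogonial transcription factor, was at 1.41 ± 0.53 (limma, adjusted p = 0.0307) and at 1.02 with median scaling, where it did not pass. Ifitm1, an interferon-induced gene of early germ cells, was at 0.36 ± 0.14 (limma, adjusted p = 0.0376) and −0.14 with median scaling, where it did not pass. Dppa5a, which embryonic stem cells also use, was lower by both scalings (−0.32 ± 0.05, limma, adjusted p = 8.85e-08, and −0.83), as was Ifitm3 (−0.31 ± 0.11, limma, adjusted p = 0.0235, and −0.82). Of the Rhox cluster beyond the pair above, Rhox6 was the 1 gene of 21 high enough to test, and it was at 1.04 ± 0.43 (limma, adjusted p = 0.0495) and 0.62 with median scaling, where it did not pass.

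**Figure D5:**
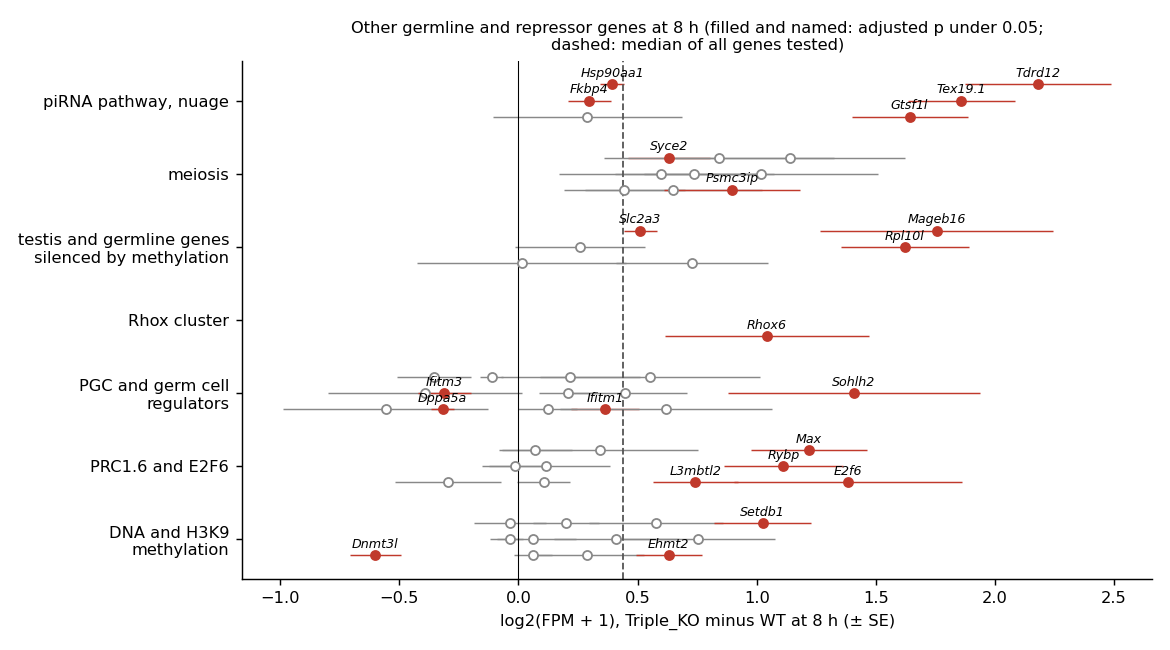
Log2(FPM + 1) difference of Triple_KO minus WT at 8 h for the tested genes of each other list, 1 point a gene, filled where limma called it, with the all-gene median of 0.44 as a dashed line. Of the 6 piRNA genes, 3 lie above that line and 3 below it, with a median of 1.02, and the primordial germ cell list lies on both sides of it.

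The genes that hold germline genes low in embryonic stem cells had no single direction, and the number called each way changed with the scaling. PRC1.6 genes had 4 of 10 tested called higher and 0 lower in limma (0 lower at an unadjusted p below 0.05), with a median of 0.23, but 1 higher and 4 lower with median scaling. Those 4 were Cbx3 (−0.78), Hdac1 (−0.52), Hdac2 (−0.43) and Wdr5 (−0.40). Max, the partner of MGA at E-boxes, was higher by both, at 1.22 ± 0.24 (limma, adjusted p = 4.56e-05) and 0.73. L3mbtl2, Rybp and E2f6 were at 0.74 ± 0.18, 1.11 ± 0.25 and 1.38 ± 0.48 by library totals (limma, adjusted p = 0.000667, 0.000278 and 0.0191), and at 0.24, 0.62 and 0.97 with median scaling, where none of these 3 passed. DNA and histone H3 lysine methylation genes had 2 of 12 higher and 1 lower, with a median of 0.24, and 1 higher and 4 lower with median scaling. Those 4 were Dnmt3l, Trim28 (−0.55), Hells (−0.53) and Uhrf1 (−0.45). The histone methyltransferase gene Setdb1 was at 1.02 ± 0.20 (limma, adjusted p = 3.71e-05) and 0.53 with median scaling, and Ehmt2, another of this kind, at 0.63 ± 0.14 (limma, adjusted p = 0.000186) and 0.13, where it did not pass. Dnmt3l, a cofactor of de novo DNA methylation that is itself abundant in germ cells, was lower by both, at −0.60 ± 0.11 (limma, adjusted p = 6.70e-06) and −1.11.

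Markers of other cell types differed with genotype. Trophectoderm markers summed to 336 to 374 FPM in Triple_KO and 221 to 263 FPM in WT libraries at 0 h, and to 338 to 456 FPM in Triple_KO and 193 to 223 FPM in WT at 8 h. At 8 h 2 of the 3 tested were higher in limma by library totals, median and TMM scaling, Krt18 by 1.93 ± 0.15 (limma, adjusted p = 2.78e-18) and Krt8 by 1.16 ± 0.11 (limma, adjusted p = 1.05e-13). The other, Lgals3, was at −0.26 (limma, adjusted p = 0.119) and was called lower with median scaling (−0.76, limma, adjusted p = 3.68e-06) and TMM, and at 0 h it had 71.9 FPM in Triple_KO and 113 FPM in WT. At 0 h Cdx2 was at 4.26 FPM in Triple_KO and 1.02 FPM in WT, Eomes at 3.70 and 3.78 FPM in Triple_KO and WT, and Elf5 at 0 in every library of both. This list bears on Tfap2c and Rhox5, which trophoblast and placenta also use, and its part in their levels was not tested.

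Feeder fibroblast markers summed to 909 to 995 FPM in Triple_KO and 661 to 778 FPM in WT libraries at 0 h, and to 1017 to 1272 FPM in Triple_KO and 903 to 975 FPM in WT at 8 h, with 7 of 14 tested genes called higher, and 1 higher and 2 lower with median scaling. None of the feeder markers was at 0 in every library of either group, though Col3a1 was at 0 in at least 1 WT library at each time. Endoderm markers were at 57.0 to 89.3 FPM in Triple_KO and 126 to 143 FPM in WT at 8 h, with 3 of 4 tested genes called lower by library totals and 4 with median scaling. Of the markers of 2-cell-like cells, which use Dppa3, the summed level of 154 to 177 FPM in Triple_KO and 83.9 to 113 FPM in WT at 0 h was nearly all Eif1a, at 157 FPM in Triple_KO and 96.9 FPM in WT. The more specific markers of that state were low. Of the 11 listed markers in the table, 2 were at 0 in every Triple_KO library at 0 h, and 6 in every WT library. Some of the others had a mean above WT, and 3 are named here after their values were seen. Gm8300 was at 3.90 FPM in Triple_KO and 0.211 FPM in WT, Tcstv3 at 1.42 FPM in Triple_KO and 0 in WT, and Zscan4d at 0.944 FPM in Triple_KO and 0 in WT. The part of these cell types in the levels of the 10 genes was not tested.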

How the data were processed

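The authors' deposited table gives 3′ poly(A) RNA-seq of 50 libraries as FPM per transcript, each library's reads scaled to its total (an RPM unit). Per the submitters' processing notes, CASAVA 1.8.2 and Bowtie2 were used with mm10. The handling of reads that match several genes is not stated in those notes. The values are whole multiples of 1 read, 100% within 0.1 of a whole number, so whole reads were recovered. Of 22338 transcripts, 22008 were named from RefSeq (GRCm38.p6) and 124 from GENCODE M21. Repeated entries (2186) were dropped and the rest summed to 19204 genes.

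Library totals were 796921 to 2341410 reads, so a value of a few FPM rests on a few reads. Duplicates differed about as much as replicates (median chi-square per degree of freedom 1.41 over 20 pairs, against 1.37 over 45 pairs of A and B) and were averaged to 2 replicates a group. limma 3.58 (R 4.3, trended variance) was fitted to log2(FPM + 1) over genes that reached 5 FPM in 2 or more replicate means. Genotypes were compared in a fit per time, and times in a fit over all libraries. Benjamini-Hochberg adjustment at 0.05 ran over all genes tested. There were 15 tested and 6 described comparisons. A fold on this scale understates the change of low genes. edgeR 4.0 and DESeq2 1.42 on the recovered reads, which called 2842 and 963 genes in Triple_KO against WT at 8 h (limma 2479), were alternatives, beside other pseudocounts, filters and scalings, each library on its own, a block for the replicate letter, and each replicate left out. The fits were checked on simulated data. Python 3.11.15, pandas 2.3.3, numpy 2.4.6 and matplotlib 3.10.9 were used.

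The members and lists were chosen with earlier results of these data known. The text names every member and, in each other germline or repressor list, the 3 called genes with the smallest p in each direction. E2f6, Gtsf1l, Eif1a, Gm8300, Tcstv3, Zscan4d, Cdx2, Eomes, Elf5, Lgals3 and Col3a1 were named after their values were seen. So were Cbx3, Hdac1, Hdac2, Wdr5, Trim28, Hells and Uhrf1.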

Additional observations from a re-analysis of the deposited data

Results flagged for a closer look

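In 6 of the 100 groups of 4 libraries (10 genes in 10 groups), 1 library stood apart from the other 3. Chance gives about 1 in 20. Of these, 4 lay in Ythdf1_KO at 8 h. Dppa3 in that group had 13.8 FPM in replicate A, with the next library at 5.22 FPM. Rhox9 had 2.51 FPM in the same library, with the next at 10.1 FPM. Piwil2 was at 0 in the other library of replicate A, with the next at 3.38 FPM, and Nanos3 was at 0 in a library of replicate B, with the next at 1.04 FPM, which are steps of 3 reads and 1 read. Tfap2c in WT at 0 h had 12.3 FPM in 1 library of replicate A, with the next at 5.89 FPM. Ddx4 in WT at 8 h had 5.71 FPM in 1 library of replicate A, with the next at 2.01 FPM.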

How the results depend on the processing

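The calls of Dppa3, Rhox5 and Tuba3a in Triple_KO against WT at 8 h, and of Dppa3 in Ythdf2_KO, kept their direction and side of the threshold under every alternative run. The counts below are genes of the 10 called. In Triple_KO against WT at 8 h limma called 4, edgeR 6 and DESeq2 3, with 3 to 4 when 1 replicate was left out. In Triple_KO against WT at 4 h the 7 calls became 4 with no filter, median or TMM scaling, 2 in DESeq2, and 3 to 4 with 1 replicate left out. Against the mean of the single knockouts at 8 h, 5 became 3 with a filter of 10 FPM, median or TMM scaling or DESeq2, 7 in edgeR, and 3 to 6 with 1 left out. Ythdf1_KO against WT at 8 h went up to 1 (0 to 1). At 0 h, Ythdf2_KO against Ythdf3_KO gave 0 in the fit on all times and 0 to 1 with 1 left out, Ythdf2_KO against Ythdf1_KO gave 1 with median scaling or edgeR and 0 to 1, and Ythdf3_KO against Ythdf1_KO gave 0 with no filter, DESeq2 or all times and 0 to 1. For 8 h against 0 h, Ythdf1_KO gave 1 with no filter, 5 with each library on its own, 4 in edgeR, 3 in DESeq2 and 0 to 2 with 1 left out, Ythdf2_KO 1 with no filter, 3 in edgeR and DESeq2 and 1 to 2, and Ythdf3_KO 2 with median scaling, each library or edgeR, 3 in DESeq2 and 1 to 2. For 8 h against 4 h, Triple_KO gave 2 with a pseudocount of 5 and 1 in edgeR, and WT gave 0 with no filter, each library, edgeR or DESeq2 and 0 to 1. The described median log2 difference at 0 h (2.05) was 1.23 with a pseudocount of 5, 1.58 with no filter or all times and 2.37 with a filter of 10 FPM, as the genes in the fit change. Counts over all genes called higher and lower at 4 h were 1320 and 161 by library totals, 520 and 860 by median and 613 and 710 by TMM. At 8 h TMM gave 761 and 783. DESeq2 called 963 genes at 8 h in either direction, against 2479 in limma. It differs from limma and edgeR in scaling as well as in its test, since those 2 kept the library totals. The cause of these changes was not tested. The letters A and B did not pair samples across genotypes (correlations of −0.0358 to 0.0425), and a block for them left each count as it was, at 4 for Triple_KO against WT at 8 h and 7 at 4 h. A lone replicate was taken to vary like the other groups.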
